A study of Rattus norvegicus with 64 samples.

Results

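The transcripts of 10 circadian clock genes, Per1, Per2, Per3, Nr1d1, Nr1d2, Dbp, Arntl, Clock, Cry1 and Cry2, were examined in the whole blood of 64 rats. They were found by their symbols, ignoring case, among the 26405 genes that at least 1 file lists, and all 10 were in every one of the 64 files, with 1 Ensembl identifier each, among the 17366 genes that all files share. The identifiers were ENSRNOG00000007387 for Per1, ENSRNOG00000020254 for Per2, ENSRNOG00000018413 for Per3, ENSRNOG00000009329 for Nr1d1, ENSRNOG00000046912 for Nr1d2, ENSRNOG00000021027 for Dbp, ENSRNOG00000014448 for Arntl, ENSRNOG00000002175 for Clock, ENSRNOG00000006622 for Cry1 and ENSRNOG00000007478 for Cry2.

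The rats were male Sprague-Dawley animals of 85 to 90 days. They were given 4 injections of saline or amphetamine (AMPH), each 2 h after the one before, in an environment held at 1 of 3 temperatures, and blood was drawn from the heart 3 h after the last injection. All blood was collected between 10.5 and 11.5 h after lights on, so the data hold a single clock time and no rhythm can be read from them. There were 6 saline rats at 22.5 °C, 5 saline rats at 16 °C, 16 saline rats at 39 °C, 22 AMPH rats at 22.5 °C and 15 AMPH rats at 16 °C. The labels call the saline rats at 39 °C and the AMPH rats at 22.5 °C hyperthermic, and the AMPH rats at 16 °C normothermic. No AMPH rats were kept at 39 °C. Globin transcripts were reduced before poly(A) RNA was sequenced.

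The mammalian clock is a feedback loop of transcription. CLOCK and BMAL1, the product of Arntl, bind E-box sequences as a pair and switch on the Per and Cry genes, whose proteins return to the nucleus and block that pair. The same pair drives Nr1d1 and Nr1d2, which encode the REV-ERB nuclear receptors that repress Arntl through RORE sequences, and Dbp, a PAR bZIP factor that acts on D-box sequences in genes such as the Per genes. Per1 and Per2 also answer to signals from outside the loop, among them glucocorticoids, cAMP and, for Per2, heat-shock factor. Leukocytes and other nucleated blood cells carry such clocks, and cell types leave and enter the blood over the day.

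Windows of RefSeq sequence running from 250 bases before to 50 bases after a transcription start (build GRCr8) were matched for 9 of the 10 genes, all but Cry1. Letters searched on both strands were the E-box CACGTG, the E'-box CACGTT, the D-box forms TTATGTAA and TTACGTAA, the RORE (an A, any 2 bases, then TAGGTCA), the cAMP response element TGACGTCA and the heat-shock element (GAA, any 2 bases, TTC, any 2 bases, GAA). No one of these strings contains another. They occurred in 6.42%, 4.83%, 0.893%, 0.12%, 0.687%, 1.83% and 0.798% of 33469 such windows, in that order. The promoters of Per2, the gene with the clearest differences between groups, and of Arntl are shown because they hold the letters of the loop's output and feedback arms. The Per2 stretch lies on the minus strand of chromosome 9, at chr9:99496994-99497203, and the Arntl stretch, listed under the symbol Bmal1, on the plus strand of chromosome 1, at chr1:176766268-176766327. Capitals mark a D-box starting at -192 and an E'-box starting at -62 from the start site in Per2, and the RORE starting at -19 in Arntl.
Per2: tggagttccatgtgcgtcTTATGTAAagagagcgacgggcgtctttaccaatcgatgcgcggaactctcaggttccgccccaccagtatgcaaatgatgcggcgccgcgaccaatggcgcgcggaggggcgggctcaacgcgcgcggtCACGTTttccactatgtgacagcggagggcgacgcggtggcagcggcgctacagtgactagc
Arntl: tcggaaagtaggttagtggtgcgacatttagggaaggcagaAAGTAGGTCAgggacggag

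The Nr1d1 gene had 2 windows, with an E'-box on the minus strand at -174 in one and an E-box at -191 in the other, and Cry2 had an E'-box on the minus strand at -212. None of the strings was found in the windows of Per1, Per3, Nr1d2, Dbp or Clock, which says only that these letters are not in those 300 bases.

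Total counts ran from 19055615 to 40530319 per rat. The study's methods left out rats whose blood held heart tissue, judged by more than 5000 counts of myoglobin (Mb). By that criterion 59 rats entered the main model, namely 4 saline rats at 22.5 °C, 5 at 16 °C and 15 at 39 °C, and 22 AMPH rats at 22.5 °C and 13 at 16 °C. Markers of T cells, B cells, monocytes, neutrophils, natural killer cells, erythroid cells and platelets were detected in every group, as whole blood should hold. The 64 files carried 14 project codes. Saline rats at 22.5 °C shared projects only with AMPH rats at 22.5 °C, and the 5 saline rats at 16 °C shared their single project with 1 rat from each of the groups saline 39 °C, AMPH 22.5 °C and AMPH 16 °C. Some libraries stood apart from their group. The heat-shock transcript Hspa1b was at 7.59 and 37.8 normalized counts in AMPH 22.5 °C replicates 17 and 16, when the other AMPH rats at 22.5 °C were at 1136 or more and the saline rats at 22.5 and 16 °C lay between 6.59 and 18.3. AMPH 22.5 °C replicate 21 had 12237 genes detected, and saline 22.5 °C replicate 19 differed from its group in Per2 (values follow). Results that rest on these rats are given with and without them.

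Levels are counts divided by DESeq2 size factors. They are not corrected for transcript length, so they were compared between rats and never between genes. Per2 was the member whose group means lay farthest apart in ratio, running from 279 ± 105 (SD, n = 15) in saline rats at 39 °C through 394 ± 211 (n = 4) in saline rats at 22.5 °C, 474 ± 199 (n = 22) in AMPH rats at 22.5 °C and 772 ± 103 (n = 5) in saline rats at 16 °C to 882 ± 277 (n = 13) in AMPH rats at 16 °C. Of neighbours in that order, Per2 was not called between saline 39 and 22.5 °C, between the groups at 22.5 °C or between the groups at 16 °C, and AMPH 22.5 °C was not tested against saline 16 °C. Per1, the sister period gene, ran from 152 ± 18.1 in saline rats at 16 °C through 253 ± 45.4 in saline rats at 22.5 °C, 277 ± 137 in AMPH rats at 22.5 °C and 376 ± 150 in saline rats at 39 °C to 402 ± 218 in AMPH rats at 16 °C, with the same numbers of rats. The 2 groups kept at 16 °C thus held the lowest and the highest mean of Per1, while they held the highest pair of means of Per2.

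The other members had group means closer together. Dbp, the output factor, ran from 127 ± 56.5 in saline rats at 39 °C to 211 ± 20.9 in saline rats at 22.5 °C, and Nr1d2 from 55.8 ± 34.8 in AMPH rats at 22.5 °C to 137 ± 41.9 in saline rats at 22.5 °C. Nr1d1 lay between 18.1 ± 10.6 in AMPH rats at 16 °C and 36.3 ± 14.3 in saline rats at 22.5 °C. Per3 lay between 22.7 ± 8.12 in saline rats at 16 °C and 40.5 ± 14.3 in saline rats at 22.5 °C. Of the activators, Arntl ranged from 110 ± 20.9 in AMPH rats at 16 °C to 145 ± 46.2 in saline rats at 22.5 °C, and Clock from 18 ± 8.16 in saline rats at 16 °C to 38.9 ± 20.1 in saline rats at 22.5 °C. Of the cryptochromes, Cry1 ranged from 122 ± 20.2 in AMPH rats at 16 °C to 219 ± 138 in saline rats at 39 °C, and Cry2 from 329 ± 105 in saline rats at 39 °C to 469 ± 132 in saline rats at 22.5 °C. For 7 of the 10 genes the saline rats at 22.5 °C had the highest mean of all groups.

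**Figure D1:**
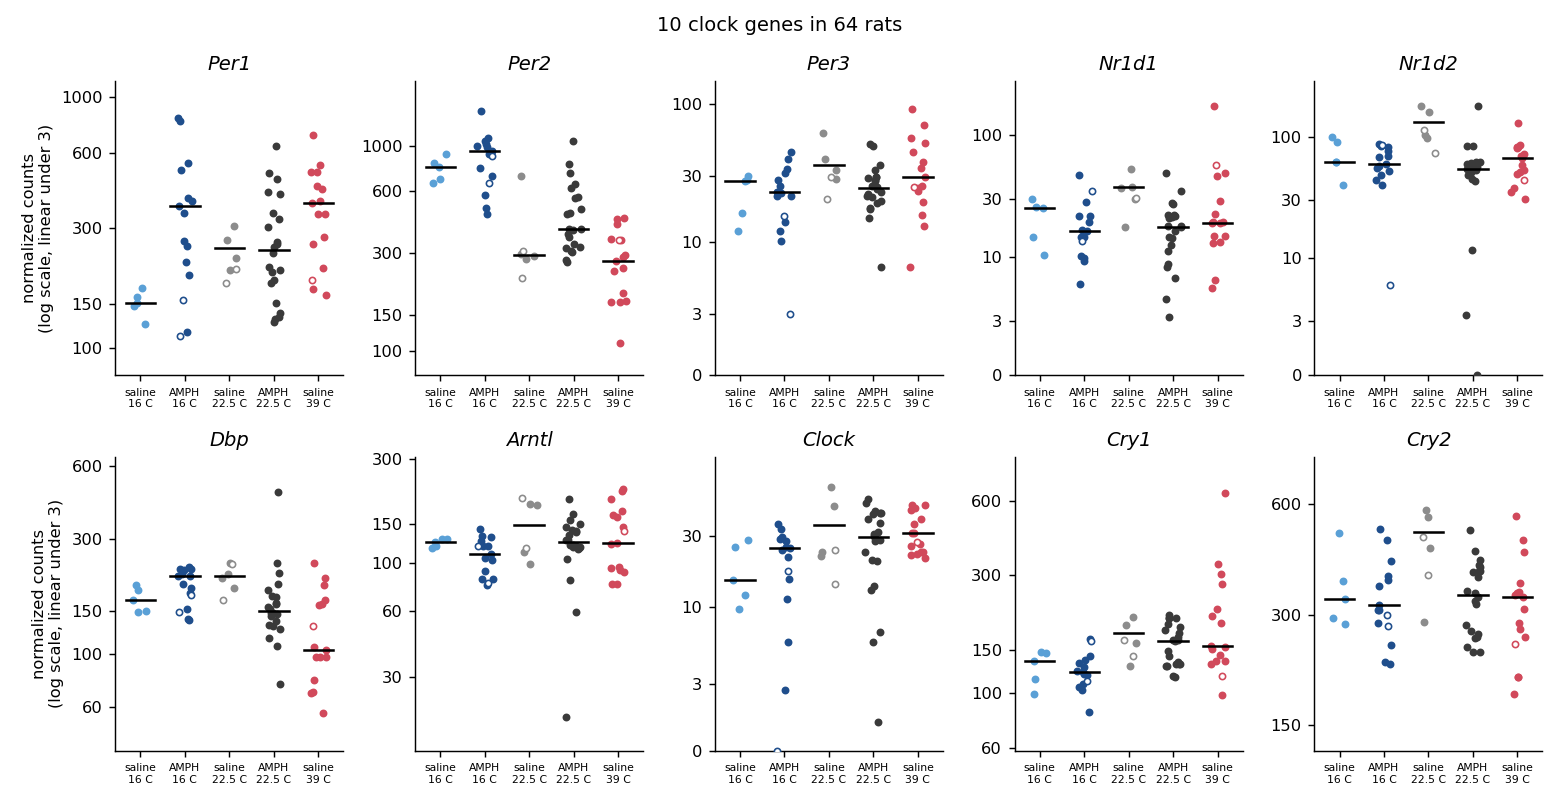
Normalized counts of each of the 10 clock genes (y axis, log scale, linear under 3) in every rat of the 5 groups (x axis). Each point is a rat, open circles are the 5 rats left out of the model for Mb, and lines mark group medians over the rats in the model. Per2 is highest at 16 °C in both drug groups, and Per1 is lowest in saline rats at 16 °C.

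Spread between rats of a group was a little wider for the clock genes than for blood genes at large. The median coefficient of variation of the 10 members was 31.2%, 20.6%, 39.2%, 43.7% and 29.2% in the groups saline 22.5, 16 and 39 °C, AMPH 22.5 °C and AMPH 16 °C, beside 20.4%, 17.7%, 35.3%, 33.2% and 24.5% over the 9539 genes that averaged 50 or more normalized counts. Several members lay under that mean and so carry more counting error. The steadiest value was Arntl in saline rats at 16 °C, at 4.02%, where the 5 rats held 117, 128, 119, 124 and 128 normalized counts. The least steady was Nr1d1 in saline rats at 39 °C, at 134%, where the lowest rat held 5.6, the median 19 and the highest 174. Cry1 had the smallest spread of the members in both AMPH groups, at 19% and 16.6%.

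The comparison of both AMPH groups asked how the clock transcripts differed when the drug was given in a normal or in a cold environment. Per2 was lower in the AMPH rats at 22.5 °C. These held 272 to 1051 normalized counts with a median of 392, and the AMPH rats at 16 °C held 466 to 1472 with a median of 940. The groups overlapped, with most rats at 22.5 °C below most rats at 16 °C. The log2 fold change, adjusted for project, was -0.89 ± 0.21 (SE), a level 0.541 times that at 16 °C, with a 95% interval of -1.32 to -0.45 and an adjusted p of 0.00568 by edgeR's quasi-likelihood test over 14000 genes. Per2 was the only member called, beside 10.3% of all genes tested in either direction and 4.69% lower, so 1 of 10 was near the share of genes at large and is a result on Per2 and not on the clock genes together. The median log2 fold change of the 10 was -0.17, beside 0.02 over all genes tested. In blood, fewer cells of a type that carries a transcript and less of it per cell cannot be told apart. The p-values here measure the spread between these rats, which the labels give as single animals.

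**Figure D2:**
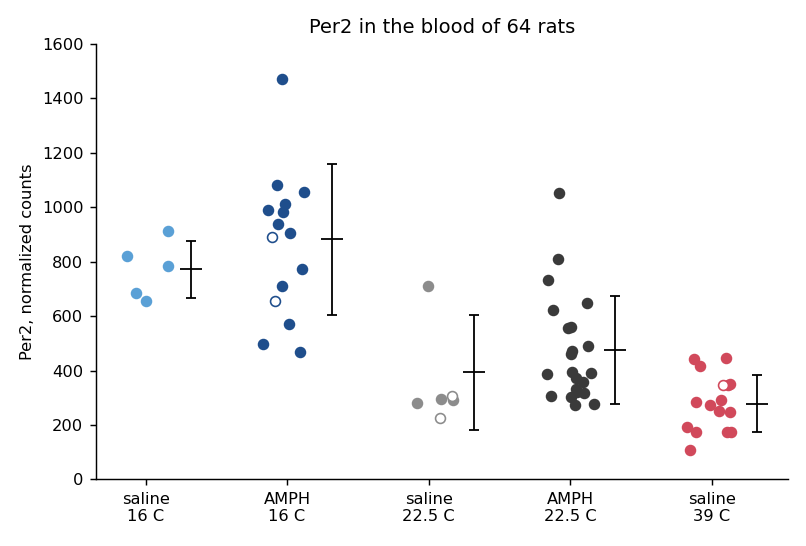
Per2 in normalized counts (y axis) in every rat of the 5 groups (x axis). Points are rats, open circles are rats left out of the model, and the bar beside each group is the mean ± SD. All AMPH rats at 16 °C in the model (466 to 1472) lie above all saline rats at 39 °C in the model (109 to 446).

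Within single projects, Per2 was lower at 22.5 °C in 5 of the 5 projects that held AMPH rats of both groups. The project means were 722 against 916, 495 against 1011, 466 against 1242, 303 against 991 and 276 against 905 normalized counts, 22.5 °C first. The median within-project log2 difference was -1.48. Leaving out each of the 35 rats in turn gave log2 fold changes of -1.06 to -0.80, all of them called. AMPH 22.5 °C replicate 21 and AMPH 16 °C replicate 10 were each alone in their project. They add nothing to an estimate adjusted for project, so leaving them out tests nothing. All fits with 1 rat left out kept the dispersion trend of the full fit. Arntl, the activator that REV-ERB represses, went the other way, higher at 22.5 °C in 5 of 5 projects, but its log2 fold change of 0.31 ± 0.15 had an adjusted p of 0.198. Per1 was at -0.45 ± 0.25 (adjusted p of 0.271, interval -0.96 to 0.05). For Cry2 the interval of -0.40 to 0.23 bounds any difference tightly, and for Nr1d1 the interval of -1.11 to 0.50 does not. Per3 was at -0.10, Nr1d2 at -0.38, Dbp at -0.24, Clock at 0.24 and Cry1 at 0.20, with adjusted p of 0.415 to 0.849.

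**Figure D3:**
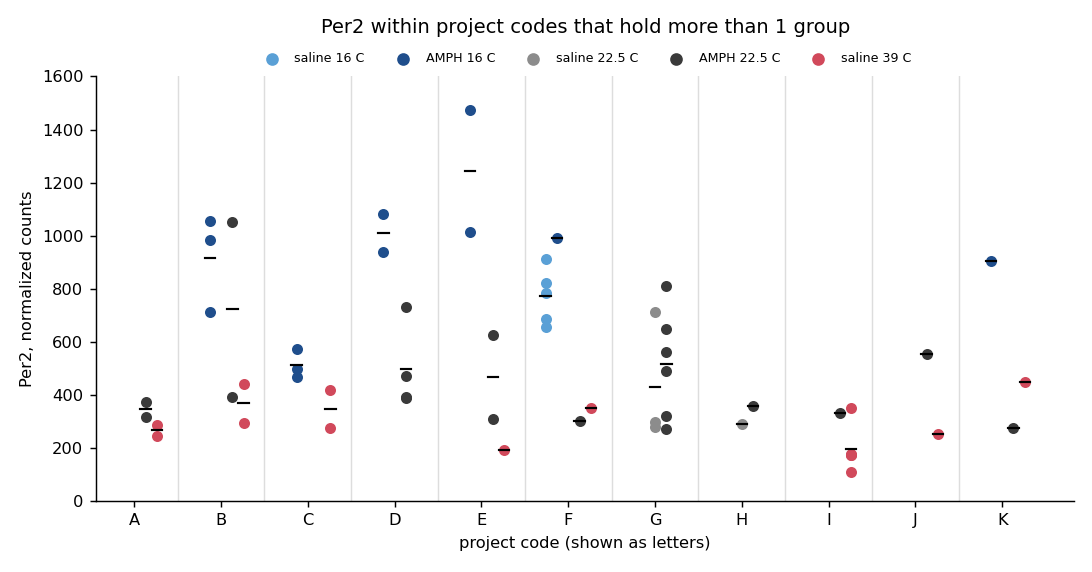
Per2 in normalized counts (y axis, points for rats in the model and short lines for means) by project code, for codes that held more than 1 group (x axis, with letters in place of the codes), coloured by group. In every project that holds both, AMPH rats at 16 °C lie above AMPH rats at 22.5 °C on average, and also above saline rats at 39 °C.

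Other gene groups differed between the AMPH groups as well. Of 6 glucocorticoid-responsive genes 3 were lower at 22.5 °C and none higher, namely the phosphatase Dusp1 (-1.12 ± 0.28, adjusted p of 0.0067), the anti-inflammatory Tsc22d3 (-0.53 ± 0.15, adjusted p of 0.0207) and the transcription factor Zbtb16 (-1.86 ± 0.49, adjusted p of 0.0101). Both cold-inducible RNA-binding genes were lower, Cirbp by a log2 fold change of -1.52 ± 0.30 and Rbm3 by -1.28 ± 0.28. All 8 identifiers of 6 heat-shock genes were higher, with a median log2 fold change of 4.08. Of 5 natural killer markers Ncr1 and Nkg7 were lower, of 5 erythroid markers Hba-a2 and Slc4a1 were lower (-1.45 and -0.92), and of 5 platelet markers Ppbp was higher (1.32). Of 5 monocyte markers 1 was higher, and the median log2 fold change of the 5 was 0.84. None of 6 neutrophil, 10 T cell, 5 B cell or 7 cardiac markers was called. The summed neutrophil markers ran from 48506 to 994728 normalized counts at 22.5 °C and from 240821 to 718319 at 16 °C. The part of these groups in the Per2 difference was not tested.

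The saline rats at 39 °C, hyperthermic without the drug, were set against the groups at 16 °C after the data had been seen. Per2 was higher in AMPH rats at 16 °C than in them, at a log2 fold change of 1.35 ± 0.23 (2.54-fold, edgeR adjusted p of 3.62e-05). Every one of the 13 AMPH rats at 16 °C lay above every one of the 15 saline rats at 39 °C, whose lowest, median and highest values were 109, 275 and 446. Only 0.829% of genes tested separated these groups. Per2 was higher in 5 of 5 shared projects, by 0.59 to 2.66 on the log2 scale. Dbp was also higher, by 0.57 ± 0.19 (1.48-fold, adjusted p of 0.036). Its saline rats at 39 °C ran from 56.4 to 238 with a median of 104, and its AMPH rats at 16 °C from 138 to 229 with a median of 210. These groups overlapped, 3 of 5 projects showed the direction, and the call was lost without any one of 9 of the 28 rats, namely saline 39 °C replicates 3, 13, 15 and 16 and AMPH 16 °C replicates 1, 8, 11, 13 and 15 (adjusted p up to 0.0903). Called, both higher, were 2 of 10 members, beside 14.3% of all genes in either direction and 7.1% higher. Cry1, lower by a log2 fold change of -0.50 ± 0.19, had an adjusted p of 0.0678 and was called in 4 of 12 alternatives, DESeq2 (adjusted p of 0.0413) among them. The remaining members were not called, at 0.16 for Per1, -0.04 for Per3, -0.48 for Nr1d1, -0.06 for Nr1d2, -0.12 for Arntl, -0.57 for Clock and 0.01 for Cry2 (adjusted p of 0.276 to 0.977). Of 6 glucocorticoid-responsive genes 1 was higher in AMPH rats at 16 °C and 1 was lower. Both cold-inducible genes were higher and all 8 heat-shock identifiers lower. Cell markers moved with this comparison too. Higher in AMPH rats at 16 °C were 2 of 6 neutrophil markers (S100a8 by 1.59 and S100a9 by 1.16), 1 of 10 T cell (Cd2), 1 of 5 natural killer (Ncr1) and 1 of 7 cardiac markers (Nppa), and lower was 1 of 5 B cell markers (Cd22). Of 5 monocyte markers 1 was higher (Cd163) and 2 were lower, Csf1r (-0.73) among them. The median log2 fold change of these 5 was -0.65. The summed neutrophil markers ran from 240821 to 718319 in AMPH rats at 16 °C and from 58473 to 324072 in saline rats at 39 °C, and their part in the differences of Per2 and Dbp was not tested.

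In the same way Per2 was higher in saline rats at 16 °C than in saline rats at 39 °C. The 5 rats at 16 °C held 657, 911, 822, 783 and 686 normalized counts, all above all 15 rats at 39 °C, a separation shown by 2.79% of genes. The log2 fold change was 1.30 ± 0.41 (2.47-fold, adjusted p of 0.0343), and Per2 was the 1 member called, beside 8.77% of all genes and 2.66% higher. The call was lost without saline 39 °C replicate 2, the only rat of its group in the project of the saline rats at 16 °C (adjusted p of 0.186), and without saline 16 °C replicate 2, 3 or 4, while the log2 fold change stayed at 1.23 or more with any 1 of the 20 rats left out. Per1 went the other way, at -1.25 ± 0.43 with an adjusted p of 0.0559 (called in 7 of 17 alternatives), and its 5 rats at 16 °C (151, 160, 125, 148 and 174) lay low beside the 162.5 to 706.9 at 39 °C, 4 of them below every rat there. The other 8 lay at -0.48 for Per3, -0.87 for Nr1d1, 0.07 for Nr1d2, 0.02 for Dbp, 0.11 for Arntl, -1.05 for Clock, -0.31 for Cry1 and 0.04 for Cry2 (adjusted p of 0.273 to 0.977). None of 6 glucocorticoid-responsive genes was called, with 2 higher at 16 °C and a median log2 fold change of -0.05. Neither cold-inducible gene was called, though both were higher, and 7 of 8 heat-shock identifiers were called lower. Here 3 of 10 T cell markers (Cd247, Cd5 and Cd8a) and 1 of 5 natural killer markers (Ncr1) were higher at 16 °C. Lower were 2 of 5 monocyte markers (Cd14 and Cd68). The T cell sum ran from 7953 to 10609 at 16 °C and from 2063 to 11288 at 39 °C. The summed neutrophil markers ran from 356500 to 803652 at 16 °C and from 58473 to 324072 at 39 °C, without overlap. None of 6 neutrophil markers was called, with 5 higher at 16 °C and 3 at an unadjusted p under 0.05 in edgeR's test. The part of these cells in the Per2 difference was not tested. Between the 2 hyperthermic groups, Per2 was at 0.46 ± 0.22 in AMPH rats at 22.5 °C over saline rats at 39 °C, with an adjusted p of 0.232, and higher in 5 of 7 shared projects. None of the 10 members was called there, beside 2.71% of genes, with Per1 at -0.29, Per3 at -0.15, Nr1d1 at -0.78, Nr1d2 at -0.45, Dbp at 0.33, Arntl at 0.20, Clock at -0.33, Cry1 at -0.29 and Cry2 at -0.07 (adjusted p of 0.255 to 0.83). Without the project term Per2 was called, at 0.79 with an adjusted p of 0.00459.

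The effect of AMPH at 22.5 °C was read against the saline rats of the same environment. None of the 10 members was called, beside 355 of 14000 genes (2.54%). Dbp and the REV-ERB gene Nr1d2 were nearest. For Nr1d2 the 4 saline rats held 182, 163, 105 and 97.9 normalized counts, and the AMPH rats 0 to 180 with a median of 54.6, at a log2 fold change of -0.94 ± 0.38 and an adjusted p of 0.143. Dbp held 214, 187, 205 and 237 in the saline rats and 74.8 to 470 with a median of 151 in the AMPH rats, at -0.64 ± 0.26 and an adjusted p of 0.143. Both genes were lower in both shared projects, and both pairs of groups overlapped. Nr1d2 in the saline rats at 22.5 °C lay above every AMPH rat at 16 °C (40.6 to 87.3), as did 3.07% of genes in one direction or the other, though these groups differ in both drug and temperature. The highest AMPH rat for Nr1d2 was replicate 17, whose Hspa1b was at the level of the saline groups, and the highest for Dbp was replicate 21. Of the others Per1 was at 0.04, Per2 at 0.25, Per3 at -0.62, Nr1d1 at -0.75, Arntl at -0.38, Clock at -0.16, Cry1 at -0.02 and Cry2 at -0.39 (adjusted p of 0.245 to 0.973).

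This comparison turned on few rats. Without AMPH 22.5 °C replicate 17 alone, Nr1d2 and Dbp were called lower. Genes called in either direction rose from 355 of 14000 to 2095, so the rise was not particular to the clock genes. Saline 22.5 °C replicate 19 held 710.99 normalized counts of Per2 where the other 3 held 295, 280 and 291, and it also had the lowest Arntl (98.3) and Cry2 (287) of the group. With this rat and AMPH 22.5 °C replicate 17 left out, a choice made after the data had been seen, 5 members were called lower under AMPH, beside 22.4% of all genes in either direction and 10.9% lower. They were Nr1d2 at -1.39 (adjusted p of 0.0113), Per3 at -0.97 (0.0365), Dbp at -0.76 (0.0482), Arntl at -0.68 (0.0274) and Cry2 at -0.64 (0.0482), all by edgeR's test. With AMPH 22.5 °C replicate 16 left out too, the same 5 were called. Without the project term Nr1d2 alone was called, at -1.30 with an adjusted p of 0.0199 (beside 13% of all genes and 6.36% lower), and with these groups fitted alone no gene at all was called. All 10 T cell and all 5 natural killer markers were lower in the AMPH rats with an unadjusted p under 0.05 in edgeR's test, and none was called. Of 6 neutrophil markers 1 was called higher, and of 5 platelet markers 1 was called higher. The T cell sum ran from 11237 to 17322 normalized counts in the saline rats and from 2121 to 17225 in the AMPH rats. The part of these cells in the lower clock transcripts was not tested.

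**Figure D4:**
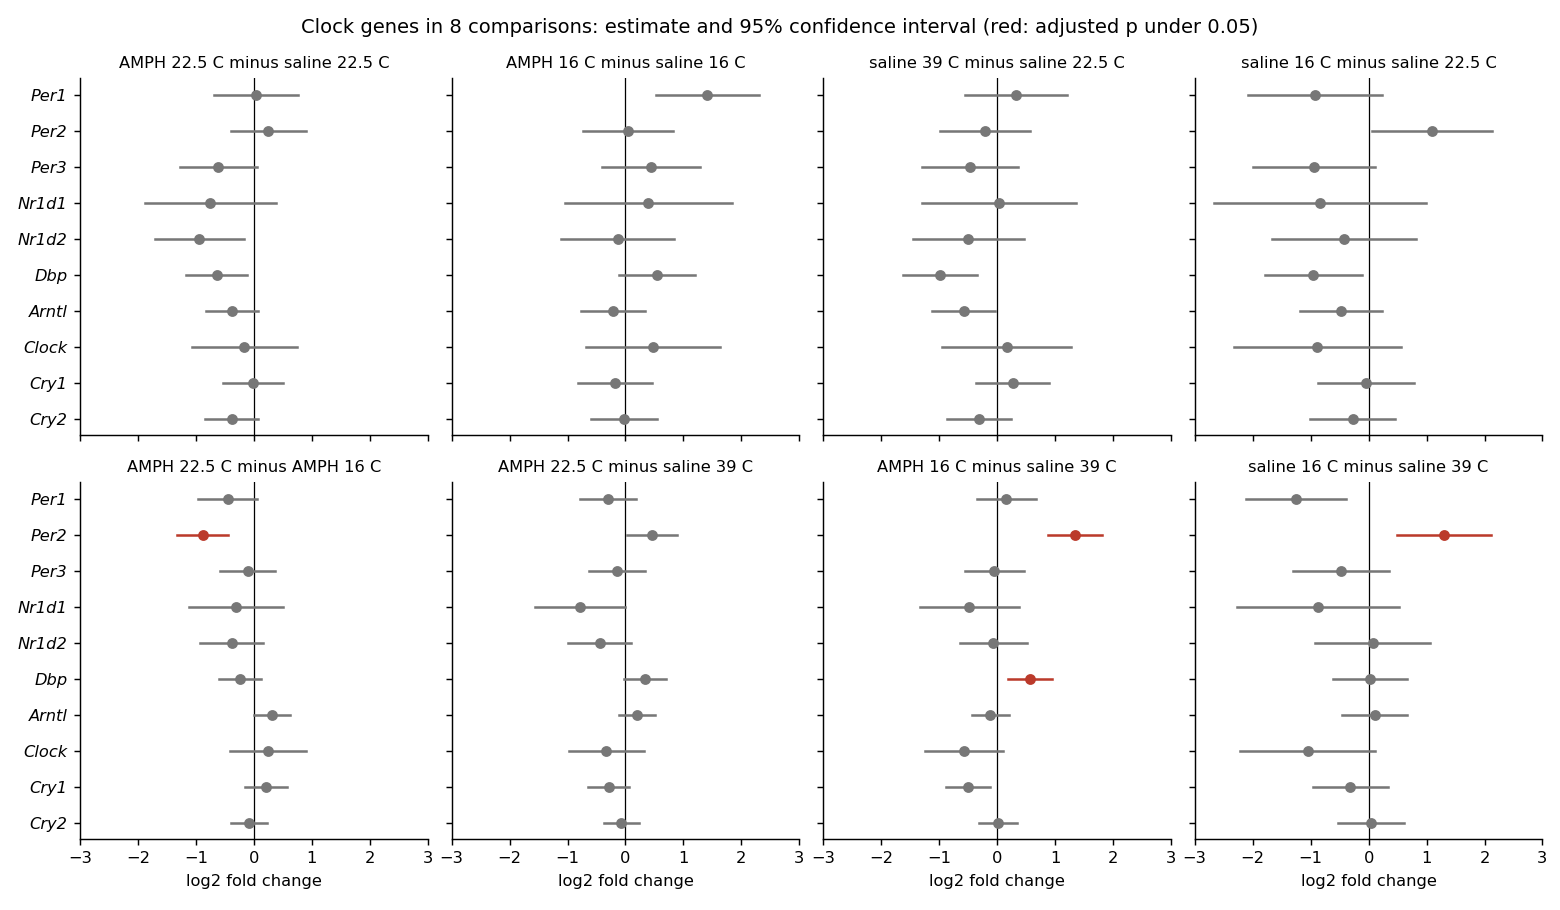
Log2 fold changes from the edgeR model (x axis) of each of the 10 clock genes (rows) in the comparisons of the study (panels). Bars are 95% intervals and red marks an adjusted p under 0.05 over all genes tested. Red are Per2 in AMPH 22.5 °C against AMPH 16 °C, Per2 and Dbp in AMPH 16 °C against saline 39 °C, and Per2 in saline 16 °C against saline 39 °C.

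In the cold environment AMPH was set against saline at 16 °C. No gene of 14000 was called by edgeR, with 1502 (10.7%) at an unadjusted p under 0.05, and DESeq2 called 91. The member farthest from 0 was Per1. Its 5 saline rats held 151, 160, 125, 148 and 174 normalized counts, and its 13 AMPH rats 116 to 825 with a median of 366. Of the AMPH rats 12 lay above all saline rats and 1 below all of them. The log2 fold change was 1.41 ± 0.44 (2.66-fold) with an unadjusted p of 0.00241 and an adjusted p of 0.197. In the project with both groups, the 1 AMPH rat held 386 against a mean of 152. Per2 was high in both groups, and the interval of its difference, -0.73 to 0.82, leaves room for a change of either sign. Log2 fold changes of the rest were 0.43 for Per3, 0.39 for Nr1d1, -0.14 for Nr1d2, 0.55 for Dbp, -0.22 for Arntl, 0.48 for Clock, -0.18 for Cry1 and -0.03 for Cry2 (adjusted p of 0.566 to 0.984).

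Temperature alone was compared within the saline rats. At 39 °C against 22.5 °C none of the 10 members was called, beside 2.87% of genes. Dbp was nearest, at -0.98 ± 0.32 with an adjusted p of 0.0657, from 187 to 237 normalized counts at 22.5 °C and from 56.4 to 238 at 39 °C. The call was made without saline 39 °C replicate 4 or 9 (adjusted p down to 0.035). Per1 was at 0.33, Per2 at -0.21, Per3 at -0.47, Nr1d1 at 0.03, Nr1d2 at -0.49, Arntl at -0.58, Clock at 0.16, Cry1 at 0.27 and Cry2 at -0.31 (adjusted p of 0.178 to 0.985). Of 10 T cell markers 2 were lower at 39 °C, and the platelet markers gave 1 of 5 higher. Saline 22.5 and 39 °C rats shared no project, so the adjustment ran through the AMPH rats. With the 2 rats in doubt left out Dbp (-1.09, adjusted p of 0.0186) and Arntl (-0.87, adjusted p of 0.0188) were called lower at 39 °C, beside 20.6% of all genes and 9.99% lower. Without the project term Nr1d2, Dbp and Cry2 were called lower, beside 26.2% of all genes and 13.1% lower. At 16 °C against 22.5 °C, 1 gene was called and no member (0.00714% of genes), with 1201 genes (8.58%) at an unadjusted p under 0.05 and 68 called by DESeq2. Per2 was at 1.09 ± 0.52, adjusted p of 0.554, with the 5 rats at 16 °C above 3 of the 4 at 22.5 °C, and 3 of the 5 above replicate 19 as well. Per1 did not overlap, with 270, 205, 229 and 308 at 22.5 °C above all 5 rats at 16 °C, as for 8.9% of genes between these groups. The log2 fold change was -0.92 for Per1, -0.95 for Per3, -0.84 for Nr1d1, -0.42 for Nr1d2, -0.95 for Dbp, -0.47 for Arntl, -0.88 for Clock, -0.04 for Cry1 and -0.27 for Cry2 (adjusted p of 0.517 to 0.99). These groups shared no project either.

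The difference between the effect of AMPH at 22.5 °C and that at 16 °C was tested as an interaction. No gene was called by edgeR, 1033 (7.38%) had an unadjusted p under 0.05, and DESeq2 called 48. Of the members, Dbp was at -1.19 ± 0.42 (unadjusted p of 0.00641, adjusted p of 0.485) and Per1 at -1.38 ± 0.57 (unadjusted p of 0.0191, adjusted p of 0.611). For both, the AMPH to saline ratio was lower at 22.5 °C than at 16 °C in these rats. Per2 was at 0.21, Per3 at -1.05, Nr1d1 at -1.14, Nr1d2 at -0.81, Arntl at -0.16, Clock at -0.64, Cry1 at 0.16 and Cry2 at -0.35, with adjusted p of 0.681 to 0.951.

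Of 22 further genes of the clock pathway 18 passed the filter on low counts. The genes Bhlhe41, Fbxl21, Hlf and Npas2 did not pass it. None of the 18 was called for AMPH against saline at 16 °C, for saline at 16 against 22.5 °C or in the interaction. Their median log2 fold change between the AMPH groups was -0.10, beside 0.02 over all genes. Between the AMPH groups 2 of 18 were lower at 22.5 °C and none higher, namely Usp2, a clock-driven ubiquitin protease (-1.09 ± 0.32, adjusted p of 0.0229), and Btrc, a ligase subunit that marks PER proteins for breakdown (-0.89 ± 0.27, adjusted p of 0.0299). Of all genes 10.3% were called there and 4.69% were lower. In AMPH rats at 16 °C against saline rats at 39 °C Usp2 was higher (1.38 ± 0.34, adjusted p of 0.0038), as Per2 was, and Csnk1e, a kinase of PER proteins, and the deacetylase Sirt1 were lower (-0.82 ± 0.17 and -0.45 ± 0.12), 3 of 18 beside 14.3% of all genes. The same pair was lower in AMPH rats at 22.5 °C against saline rats at 39 °C, Csnk1e by -0.59 and Sirt1 by -0.45, 2 of 18 beside 2.71% of all genes. These last comparisons share the saline rats at 39 °C. Csnk1e was higher at 39 °C than at 22.5 °C in saline rats (1.30, adjusted p of 0.0181, 1 of 18 beside 2.87% of all genes) and lower at 16 °C than at 39 °C (-1.04, adjusted p of 0.016). In that last comparison Bhlhe40, a repressor of the CLOCK and BMAL1 pair, was lower too (-1.24, adjusted p of 0.0294), which made 2 of 18 beside 8.77% of all genes. Under AMPH at 22.5 °C Nfil3, which competes with DBP for D-box sequences, was the 1 pathway gene called (1.71 ± 0.44, adjusted p of 0.0292, higher), 1 of 18 beside 2.54% of all genes.

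Coordination between members was weak. In each of the 3 groups with more than 10 rats, 45 pairs were correlated on log2 normalized counts, 135 relations in all, each with a permutation p. The median Pearson r was 0.08 in AMPH rats at 22.5 °C (n = 22), 0.13 in AMPH rats at 16 °C (n = 13) and 0.14 in saline rats at 39 °C (n = 15), with 27, 26 and 33 of 45 above 0. A single pair passed the Benjamini-Hochberg adjustment by Pearson's r and none by Spearman's rho. It was Nr1d2 and Clock in AMPH rats at 22.5 °C, with r = 0.892 (permutation p of 1.00e-05, the smallest that 100000 permutations give, adjusted 0.00135) and rho = 0.61 (permutation p of 0.00303, adjusted 0.205). Without the 2 farthest rats r was 0.718, centred on project it was 0.818 over 16 rats, and without replicates 16, 17 and 21 it was 0.766. Both genes were low in replicates 9, 13 and 21, with Nr1d2 at 3.4, 11.7 and 0 and Clock at 6.79, 5.83 and 1.31 normalized counts. Replicates 9 and 13 stayed in the value of 0.766, and the part of these libraries in the relation was not tested. The next pair was Nr1d2 and Arntl in AMPH rats at 22.5 °C (r = 0.815, adjusted 0.0972), which fell to 0.323 without the 2 farthest rats. Beside it stood Per2 and Cry2 in AMPH rats at 16 °C (r = 0.774, rho = 0.83, adjusted 0.0972 and 0.112), which was 0.231 centred on project. The order that a running loop would give, with activators and their targets apart, could not be read from these pairs, since all blood was from a single clock time.

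**Figure D5:**
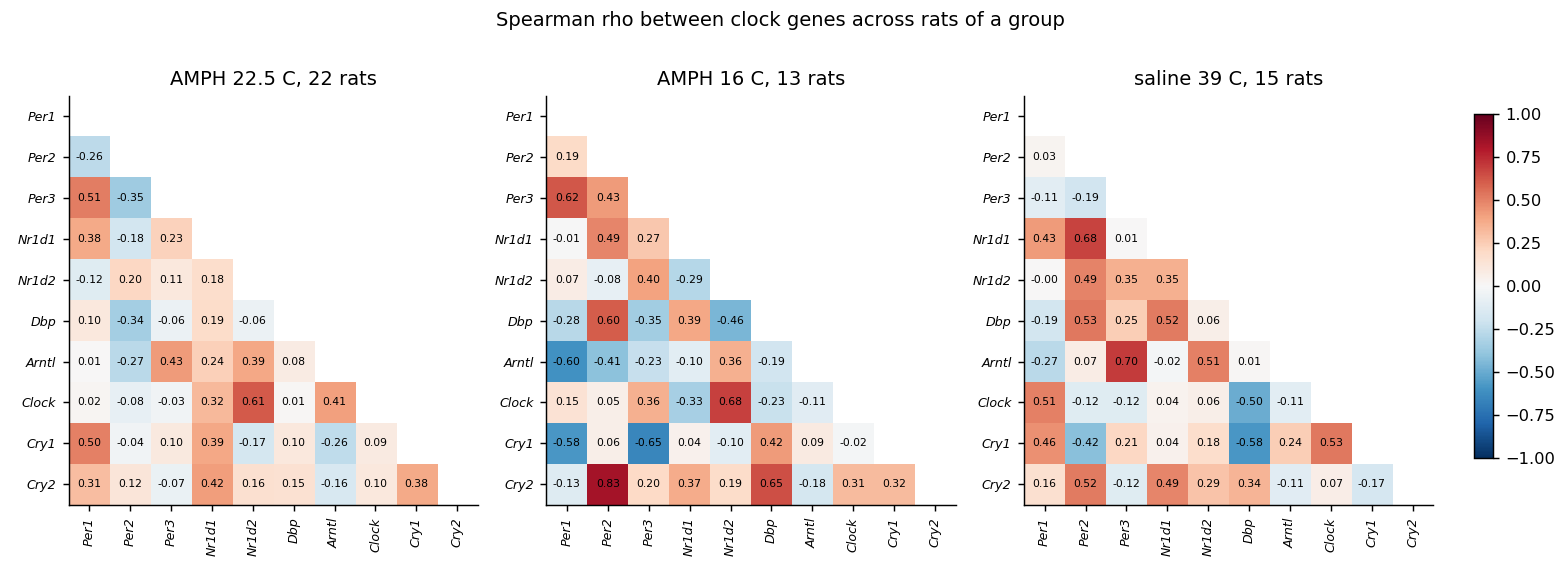
Spearman's rho between every pair of the 10 clock genes over rats, in the 3 groups with more than 10 rats (panels, colour scale from -1 to 1). The median rho was 0.103 in AMPH rats at 22.5 °C, 0.0604 in AMPH rats at 16 °C and 0.0679 in saline rats at 39 °C.

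Beside summed cell markers and heat-shock genes, the members also varied within groups, in relations chosen after the data had been seen. In saline rats at 39 °C Per3 and Arntl fell with rising neutrophil markers over 15 rats, at r = -0.761 and r = -0.724 (permutation p of 0.00079 and 0.00141, adjusted 0.0423 for both over 60 relations) and rho = -0.761 and rho = -0.746 (permutation p of 0.00142 and 0.0021, adjusted 0.042 for both). Without the 2 farthest rats r was -0.668 and -0.601, and centred on project over 11 rats it was -0.766 and -0.609. In AMPH rats at 16 °C Per1 fell in rank with rising T cell markers (rho = -0.835, adjusted permutation p of 0.042), with r = -0.661 not passing (adjusted permutation p of 0.164). Per2 showed no such passing relation with neutrophil markers, at rho of 0.595 (adjusted permutation p of 0.0539) in AMPH rats at 22.5 °C, 0.275 in AMPH rats at 16 °C and -0.0607 in saline rats at 39 °C. Per1 rose in rank with the heat-shock sum in both hyperthermic groups, with rho of 0.595 over 22 AMPH rats at 22.5 °C and 0.711 over 15 saline rats at 39 °C, an adjusted permutation p of 0.042 in each over 20 relations. Pearson's r was 0.413 and 0.581 (adjusted permutation p of 0.238 and 0.158), 0.683 and 0.715 without the 2 farthest rats, and 0.191 and 0.327 centred on project. In the same groups Per2 had rho of -0.335 and -0.607 with the heat-shock sum (adjusted permutation p of 0.289 and 0.0917). Cry1 had rho of 0.398 and 0.611 (adjusted permutation p of 0.199 and 0.0917). Centred on project, r was 0.049 and -0.318 for Per2 and 0.316 and 0.594 for Cry1.

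The genes whose levels were most like a member's over the 59 rats were listed as a description. They share the groups, projects and blood cells of these rats, so no p is given. For Per2, Myadm, Cd97 and Slc12a2 had Spearman's rho of 0.898, 0.875 and 0.868 among 9539 genes. For Per1 they were H6pd, Srsf4 and Cyth1 at 0.751, 0.712 and 0.71. The nearest gene was Tssc4 for Dbp (0.705), Stat5a for Nr1d1 (0.659), Trim32 for Arntl (0.739) and Pank3 for Clock (0.739), none of them another clock gene. Only genes averaging 50 or more normalized counts were candidates, so Per3, Nr1d1 and Clock could not appear as a nearest gene.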

How the data were processed

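Per the labels, blood RNA was sequenced from 64 rats. The submitters' processing notes name CASAVA 1.8.2, Bowtie 0.12.9, RSEM 1.2.0 and rn5. The authors deposited RSEM expected counts per gene, not normalized, in 6 differing gene lists. They were rounded to whole counts here, and the 17366 genes of every file were kept. Rats over 5000 Mb counts were left out of the model, as in the study's methods. The 14000 genes that reached 10 counts in 4 or more rats were fitted in edgeR 4.0.16 (R 4.3.3), with TMM scaling, a term per group and per project code, and the quasi-likelihood test with Benjamini-Hochberg adjustment. Called means an adjusted p under 0.05. The biological coefficient of variation was 0.419. What a project code stands for is not given in the sources used here. Levels used DESeq2 1.42.0 size factors, and correlations used log2(level + 1). No 2 files of a group agreed within sampling noise. Replicate numbers did not pair the rats. Scripts were tested on 1 set of simulated data with 200 genes changed in AMPH rats at 22.5 °C. Against saline at 22.5 °C, edgeR recovered 25% of 2-fold and 88% of 4-fold changes. Against AMPH at 16 °C it recovered 69% and 98%. Of edgeR's calls 5.83% and 5.11% were false in these comparisons, and of DESeq2's 10.29% and 14.14%.

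All 10 members are given in every comparison, and of each other list at most the 4 called genes with the smallest adjusted p. Members and lists were chosen with earlier results of these data known. Comparisons of the 16 °C groups with saline rats at 39 °C, the 3 rats in doubt, marker correlations and genes like Per2 were added after the data were seen. Promoters are from RefSeq (GRCr8).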

Additional observations from a re-analysis of the deposited data

Results flagged for a closer look

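In saline rats at 22.5 °C, Per2 was at 710.99 normalized counts in replicate 19, with the next rat at 295 and the lowest at 280. Its gap to the next rat was 0.963 of the group's range, above the critical value of 0.829 for 4 rats. It was the only one of 40 highest and lowest values examined in groups of 4 to 10 rats that passed, where chance flags about 1 in 20 groups. Both rats of this group left out for Mb, replicates 20 and 22, held 306 and 227.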

How the results depend on the processing

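Of 1380 member values under the alternatives, 1336 kept their side of the threshold, 38 were newly called, 6 lost their call and none that was called changed sign, while 82 uncalled values did. Per2 was called in all 12 alternatives between the AMPH groups (-1.11 to -0.88) and between AMPH 16 °C and saline 39 °C (1.25 to 1.74). Counts of genes called moved far more, and the cause was not tested. The comparisons with saline at 22.5 °C rest on 4 saline rats, and the saline rats at 16 °C all carry 1 project code. Counts below are of all genes unless they are said to be of clock genes.

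With DESeq2, 1141 genes were called for AMPH against saline at 22.5 °C and 91 at 16 °C, 1300 for saline 39 against 22.5 °C (1 clock gene, Dbp), 68 for saline 16 against 22.5 °C, 777 for AMPH 22.5 °C against saline 39 °C and 48 for the interaction. For saline 16 against 39 °C, 2 clock genes (Per1 and Per2) were called with DESeq2, beside 9.37% of all genes. The same 2 were called with DESeq2's size factors in edgeR (beside 9.25%) and with both rats in doubt left out (beside 10%). With no project term 3 were called (also Cry1), beside 19.7% of all genes. Without project, counts were 1823 (1 clock gene, Nr1d2), 3671 for saline 39 against 22.5 °C (3 clock genes), 0 for saline 16 against 22.5 °C, 2209 between the AMPH groups, 1259 for AMPH 22.5 °C against saline 39 °C (1 clock gene, Per2), 20 for the interaction, 4035 for AMPH 16 °C and 2752 for saline 16 °C against saline 39 °C. With all 64 rats, they were 1085 for AMPH at 22.5 °C, 1178 for saline 39 against 22.5 °C (1 clock gene, Dbp) and 239 for AMPH 22.5 °C against saline 39 °C.

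With both rats in doubt left out, the counts were 3120 for AMPH at 22.5 °C (5 clock genes), 2873 for saline 39 against 22.5 °C (2 clock genes), 210 for saline 16 against 22.5 °C and 81 for the interaction. With 3 left out they were 3651 (5 clock genes), 3362 (2 clock genes), 142 and 103 in that order. A log2 fold change above 0.58 asked as well left 223 genes for AMPH 22.5 °C against saline 39 °C. For AMPH 16 °C against saline 39 °C it left 1 clock gene, Per2, beside 10% of all genes. With the compared groups fitted alone, counts were 0 for AMPH at 22.5 °C and 1 at 16 °C, 2145 for saline 39 against 22.5 °C (1 clock gene, Nr1d2), 49 for AMPH 22.5 °C, 913 for AMPH 16 °C (1 clock gene, Per2) and 279 for saline 16 °C against saline 39 °C (1 clock gene, Per1 and not Per2). Fitted within the AMPH rats whose identifiers end with W and their controls, AMPH at 22.5 °C gave 0 genes.

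Same-numbered rats correlated at a mean of -0.032 to 0.177, never over 0.1 in every pair, so the replicate block shares only a number. With the replicate block, counts were 0 for AMPH at 22.5 °C, 123 at 16 °C and 2630 between the AMPH groups (2 clock genes, Per2 and Cry1). Against saline 39 °C they were 246 for AMPH 22.5 °C (1 clock gene, Per2) and 3037 for AMPH 16 °C. For saline 16 °C against saline 39 °C the count was 974 (2 clock genes, beside 8.04% of all genes). The same rats without the replicate block gave 0 for AMPH at 22.5 °C, 540 at 16 °C (1 clock gene, Per1) and 3267 between the AMPH groups (2 clock genes). Against saline 39 °C they gave 3688 for AMPH 16 °C and 1432 for saline 16 °C (2 clock genes, beside 11.8% of all genes). In no comparison did more than 3 rats correlate best with their own number. No paired analysis was possible for saline 39 or 16 °C against saline 22.5 °C because these groups share no replicate numbers.

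Each saline rat at 22.5 or 16 °C was left out in turn. This gave 8 to 1362 genes for AMPH at 22.5 °C (21, 12, 1362 and 8 without replicates 17, 18, 19 and 21). It gave 5 to 1382 for saline 39 against 22.5 °C (49, 26, 1382 and 5) and 0 to 2 for saline 16 against 22.5 °C. It gave 0 to 1 for AMPH at 16 °C, and 0 to 1 clock genes for saline 16 against 39 °C. Without saline 39 °C replicate 4, 8 or 10, both Per1 and Per2 were called for saline 16 against 39 °C. Without replicate 4, 1395 genes in all were called there. Of the other rats, leaving out AMPH 22.5 °C replicate 17 gave 2095 genes for AMPH at 22.5 °C, AMPH 16 °C replicate 14 gave 75 for AMPH at 16 °C, saline 39 °C replicate 2 gave 78 for saline 16 against 39 °C, and saline 39 °C replicates 5 and 9 gave 165 and 812 for AMPH 22.5 °C against saline 39 °C.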

Other observations

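Nr1d2 and Clock were both near 0 in a few libraries with fewer genes detected. In AMPH 22.5 °C replicate 21, with 12237 genes detected, Nr1d2 had 0 counts, which allows up to 3, and Clock had 1, while Dbp was at 470 and Cry2 at 395 normalized counts. In AMPH 16 °C replicate 12, a rat left out of the model for Mb with 13904 genes detected, Clock had 0 counts and Nr1d2 was at 5.97 normalized counts, while Per2 was at 656. AMPH 22.5 °C replicates 9 and 13, with 14700 and 14629 genes detected, held 3.4 and 11.7 of Nr1d2 and 6.79 and 5.83 of Clock.

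The 5 rats left out for Mb held Per2 values within the ranges of their groups or just outside them. They were 891 and 656 in AMPH rats at 16 °C, 306 and 227 in saline rats at 22.5 °C and 347 in the saline rat at 39 °C.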
